A study of Mus musculus with 68 samples.

Results

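ERY-I cells, labelled in the study as proerythroblasts (ProE), were compared with CFU-E, the erythroid colony-forming progenitors that precede them. Both populations were sorted by flow cytometry from the marrow of mice, and their RNA was sequenced from total RNA with a strand-keeping kit for picogram inputs. The comparison used the 7 ERY-I and 5 CFU-E libraries of the stage series, 12 of the 68 libraries of the whole study, taken by their column names. A further 3 WT ERY-I-II libraries (ProE with basophilic erythroblasts) and 3 WT CFU-E libraries of the study's knockout series gave a separate measurement of a nearby step. The labels name no strain, age, sort marker or, for the stage series, genotype, and no transgene or treatment is named for these groups. The stage-series table lists 24059 genes, of which 10460 had enough counts to be tested.

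CFU-E are dividing progenitors that depend on erythropoietin and on the receptor KIT, carry transferrin receptor and make almost no hemoglobin. Proerythroblasts are the first precursors that can be recognised by their shape. From there each division is coupled to maturation: heme, globin and the red cell membrane skeleton are built up, while the machinery for growth is run down. GATA1 and KLF1 are the transcription factors best known for driving this programme, and MYC, MYB, KIT and GATA2 mark the progenitor state.

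Library totals ran from 4271156 to 7879552 counts in ERY-I and from 4998892 to 10399863 counts in CFU-E, with 12586 to 14868 genes seen in ERY-I and 12758 to 13777 in CFU-E. The libraries fell into 2 sets. Replicates 1 to 3 of both stages held transcripts of Y-linked genes, and the remaining replicates (4 to 7 of ERY-I, 4 and 5 of CFU-E) held Xist. Replicates 1 to 3 were also far closer to each other than the rest. The chi-square of their counts per degree of freedom, which would be near 1 for repeat draws from the same RNA, was 2.47 to 3.09 between these ERY-I libraries and 1.44 to 1.68 between these CFU-E libraries, against 15.7 to 68.4 between ERY-I 4 to 7 and 13.6 between CFU-E 4 and 5. They differed by more than counting noise, which does not show that they came from separate samples. They were kept as separate libraries, and the counts of genes higher and lower in ERY-I at an adjusted p below 0.05, over all genes and in each list, are also given with replicates 1 to 3 of each stage summed to 1 library ("summed triplicates"). The counts of larger changes, of libraries that do not overlap and of the comparison with WT have no such value. Where a test of the difference between the sets is given with summed triplicates, replicates 1 to 3 are 1 library per stage. Their change then has no replication, so a call lost there may reflect low power. Since no label says that replicates came from separate mice, the p-values reflect no more than library-to-library spread, part of which may be technical.

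Levels of other blood cells' marker genes varied widely between the ERY-I libraries. Summed over the neutrophil marker list, ERY-I replicates 1 to 7 held 15800, 15970, 15550, 47.7, 1365, 21.2 and 0.818 CPM (counts scaled to a common library total), against 32.2, 33.0, 28.9, 6.36 and 4.40 CPM in CFU-E replicates 1 to 5. Macrophage markers summed to 2263, 2325, 2312, 106, 258, 9.62 and 9.81 CPM in ERY-I, against 24.0, 18.6, 20.2, 24.7 and 14.2 CPM in CFU-E, and B lineage markers to 857, 841, 870, 55.2, 79.6, 1.05 and 2.25 CPM in ERY-I, against 2.62, 4.43, 3.65, 5.20 and 13.4 CPM in CFU-E. ERY-I 1 to 3 were thus highest for these 3 cell types, ERY-I 5 came next and ERY-I 6 and 7 lay at the CFU-E level or below. Endothelial and stromal markers were also high in ERY-I 4, with 590, 587, 607, 324, 67.9, 5.41 and 5.72 CPM in ERY-I and 4.71 to 8.86 CPM in CFU-E. T and NK cell markers summed to 10.1 to 94.4 CPM in ERY-I and 0.714 to 4.2 CPM in CFU-E, and those of mast cells, basophils and eosinophils to 0 to 472 CPM in ERY-I and 0.385 to 5.86 CPM in CFU-E. Megakaryocyte markers (71.0 to 150 CPM in ERY-I and 63.2 to 97.4 CPM in CFU-E) and dendritic or plasma cell markers (20.2 to 467 CPM in ERY-I and 53.6 to 73.8 CPM in CFU-E) overlapped between the stages.

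**Figure D1:**
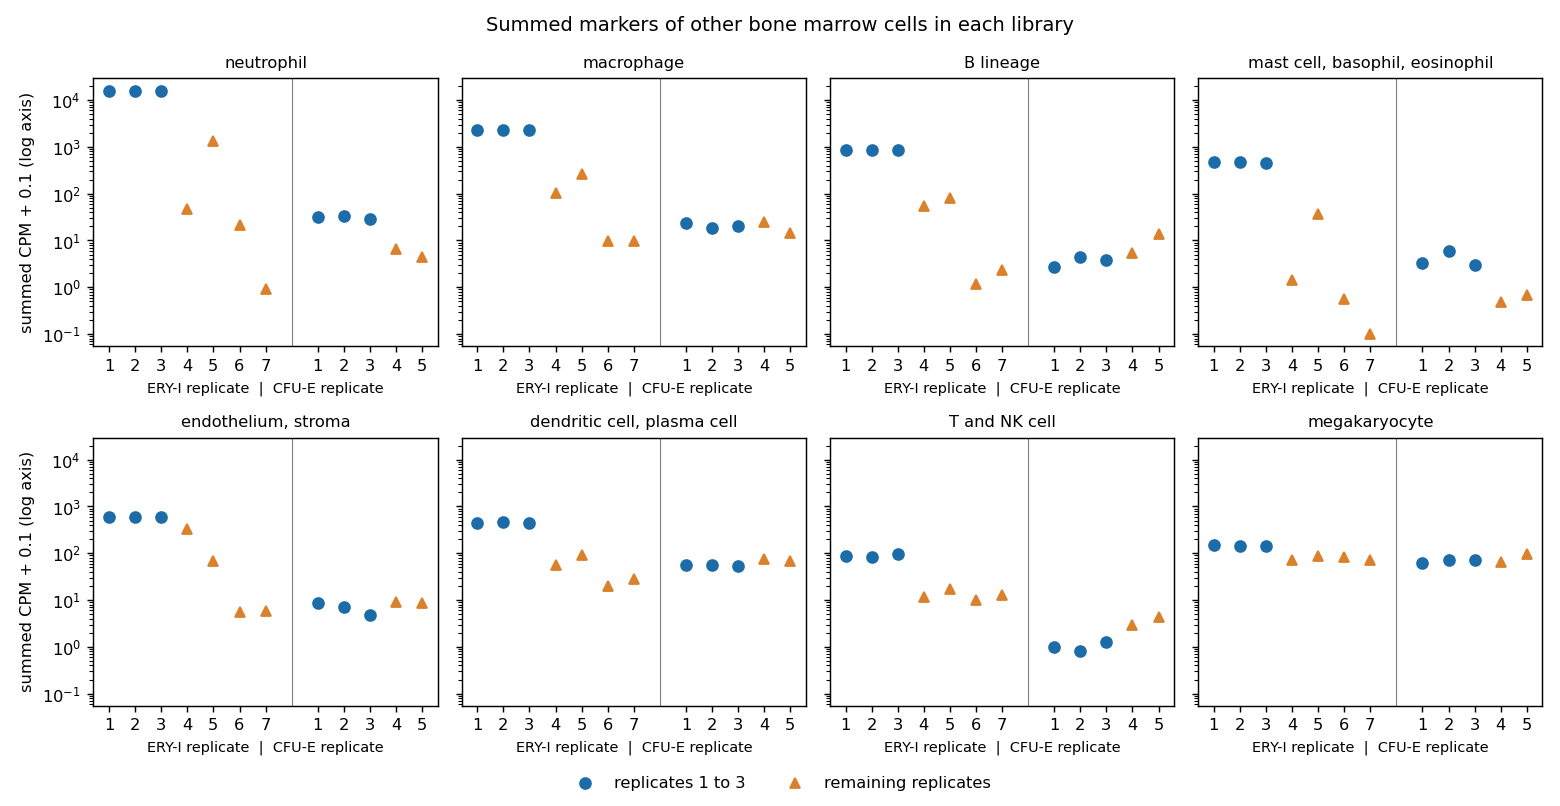
Summed marker level of 8 other cell types in each library (CPM plus 0.1, log axis), ERY-I left and CFU-E right, circles for replicates 1 to 3 and triangles for the remaining replicates. ERY-I 1 to 3 lie above every CFU-E library in all 8 panels, while ERY-I 6 and 7 reach the CFU-E level for neutrophil, macrophage, B lineage and stromal markers.

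Of the marker genes tested, 8 of 8 neutrophil, 14 of 15 macrophage, 9 of 9 B lineage, 6 of 6 endothelial or stromal, 3 of 3 T and NK, 1 of 1 mast or eosinophil and 2 of 6 dendritic or plasma cell genes rose in ERY-I. With summed triplicates 5, 11, 4, 4, 1, 0 and 2 of these rose. Over all genes tested 31.7% rose. The stage-series table held 17, 22, 17, 17, 14, 18 and 17 genes of these lists. All but the dendritic or plasma cell list were low in CFU-E, so members could pass the count filter mainly through ERY-I. A rise among those tested was thus nearly fixed by the filter and is a description. Because of the marker sums above, the results were also fitted on ERY-I 4, 6 and 7 against CFU-E 4 and 5 alone, a subset chosen after the data were seen for its low neutrophil, macrophage and B lineage sums. There only 5, 3, 3, 0, 2, 0 and 4 of these marker genes, in the same order of lists, had enough counts to be tested. Of those tested 2, 0, 0, 0, 1, 0 and 0 rose, so most zeros rest on few genes or none. Of 7 megakaryocyte markers 4 rose and 2 fell (2 and 2 with summed triplicates), and of 5 sex-linked transcripts none changed (in the low-marker libraries 1 of 1 rose). The subset is called here "the low-marker libraries". It holds 5 libraries, so fewer genes can pass the test, and ERY-I 4 in it lay above every CFU-E library for neutrophil, macrophage, B lineage and stromal markers. The part of the other cells in a result was not tested. In sorted cells, fewer cells of a type and less RNA per cell cannot be told apart.

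Among the landmark genes of the lineage, Kit was lower and Slc4a1 higher in every ERY-I library, while Gata1, Klf1, Epor, Gata2 and Ccnd2 overlapped between the stages. Kit, the stem cell factor receptor, had a lowest, median and highest level of 2.11, 70.1 and 86.7 CPM over the ERY-I libraries, against 507, 518, 513, 273 and 211 CPM in CFU-E. Slc4a1, the band 3 anion exchanger of the red cell membrane, had 4668, 4806 and 11245 CPM in ERY-I, against 12.7, 11.6, 12.2, 30.4 and 108 CPM in CFU-E. Neither gene overlapped between the stages, and ERY-I 6 was the library with the lowest Kit. The log2 fold change of ERY-I over CFU-E, which is relative to the trimmed-mean (TMM) scale and adjusted for library set, was -2.41 ± 0.44 (SE) for Kit (edgeR adjusted p = 0.00045) and 8.14 ± 0.54 for Slc4a1 (edgeR adjusted p = 7.4e-07). Slc4a1 lies on chromosome 11 at 102348824 to 102366203 on the minus strand and Kit on chromosome 5 at 75574916 to 75656722 on the plus strand (GRCm38).

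Tfrc, the receptor for iron-loaded transferrin, had 1813, 2215 and 3906 CPM in ERY-I (lowest, median and highest), against 903, 904, 911, 1410.1 and 1224 CPM in CFU-E. The groups did not overlap, and the log2 fold change was 1.49 ± 0.22. Klf1 rose less, by 0.70 ± 0.15 (edgeR adjusted p = 0.0014), with 293, 685 and 922 CPM in ERY-I and 246, 246, 246, 562 and 618 CPM in CFU-E. Its groups overlapped, and its call was lost without the library set term. Epor, the erythropoietin receptor, had 85.3, 123 and 161 CPM in ERY-I, against 86.2, 93.7, 97.7, 90.1 and 112 CPM in CFU-E. Epor was called higher by 0.55 ± 0.18 (edgeR adjusted p = 0.017), but not with library totals, in replicates 1 to 3 alone, or without CFU-E 4, CFU-E 5 or ERY-I 7. Gata1 had 172, 273 and 294 CPM in ERY-I, against 210.3, 198, 198, 262 and 267 CPM in CFU-E, and missed the threshold (0.31 ± 0.13, edgeR adjusted p = 0.052), although DESeq2 and the remaining replicates alone called it higher.

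**Figure D2:**
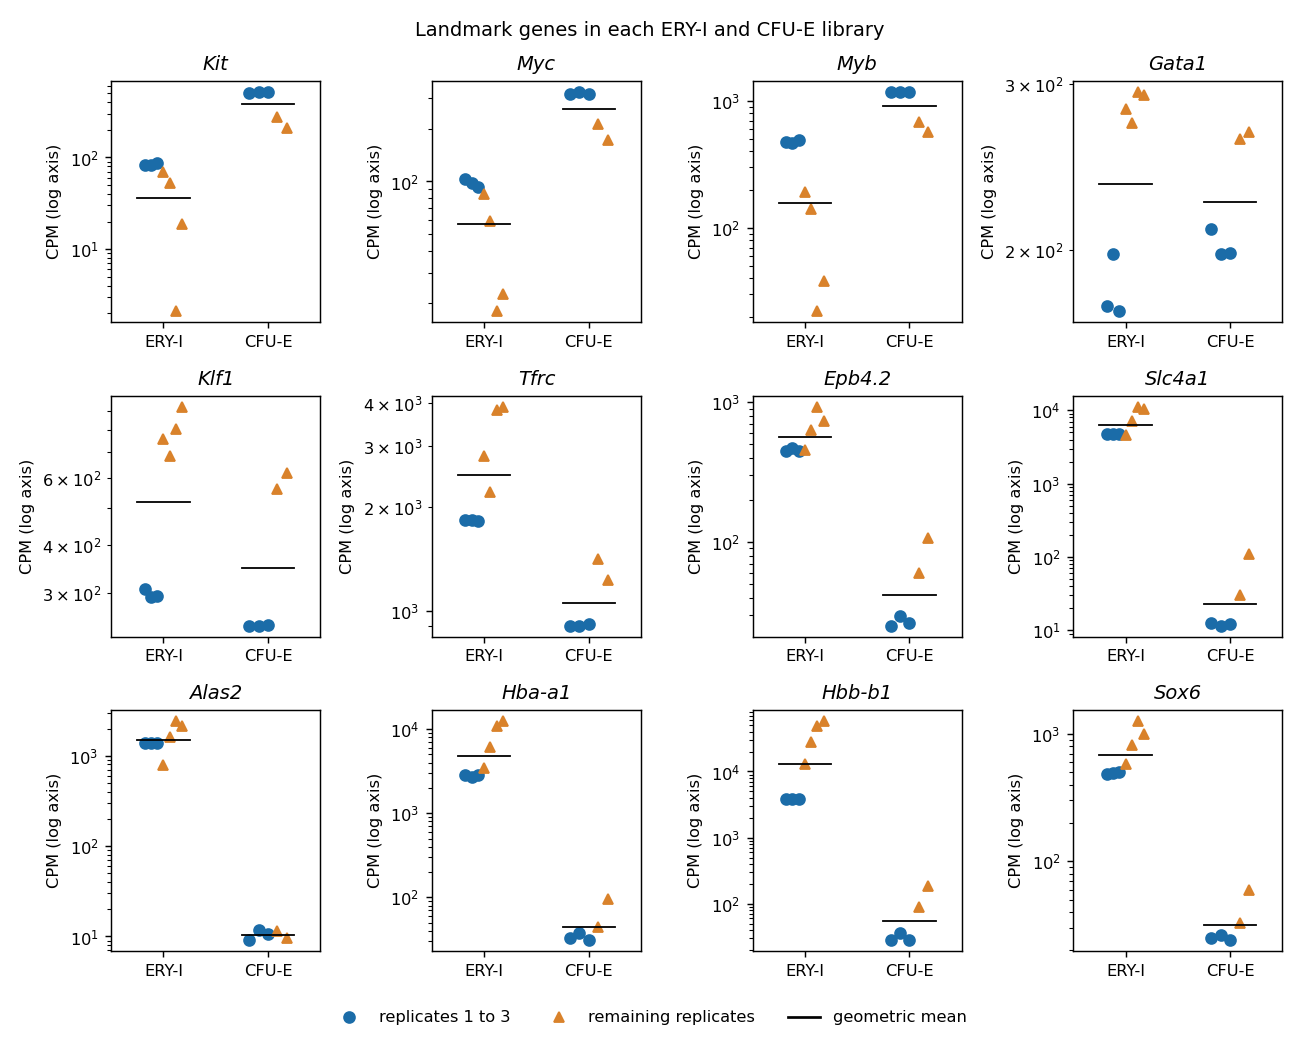
Level of 12 landmark genes in each library (CPM, log axis), ERY-I left and CFU-E right, with the geometric mean of each stage as a line, circles for replicates 1 to 3 and triangles for the remaining replicates. Slc4a1 and Alas2 stand more than an order of magnitude apart between the stages, Kit is lower in every ERY-I library, and Gata1 overlaps.

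Over all genes, 3318 (31.7%) were higher and 3024 (28.9%) lower in ERY-I at a Benjamini-Hochberg adjusted p below 0.05 (edgeR quasi-likelihood test), 60.6% together. Summed triplicates gave 2344 higher (23.0%) and 2011 lower (19.7%), 42.8% together, and the low-marker libraries 2066 higher (20.9%) and 1653 lower (16.7%), 37.6% together. The median log2 fold change of all genes was 0.03 with TMM and -0.29 with library totals. Scaled by totals, 2292 genes were higher and 4257 lower, so directions below are relative to the TMM scale. Among large changes, increases outnumbered decreases: 1014 genes (9.69%) rose and 291 (2.78%) fell when tested against a 2-fold change. The 7 ERY-I libraries all lay above the 5 CFU-E libraries in CPM for 1023 genes (9.78%) and all below for 2414 (23.1%). CPM rest on library totals, which place ERY-I lower than the TMM scale does. This split and later statements on overlap therefore lean towards lower genes and are not on the scale of the fold changes.

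**Figure D3:**
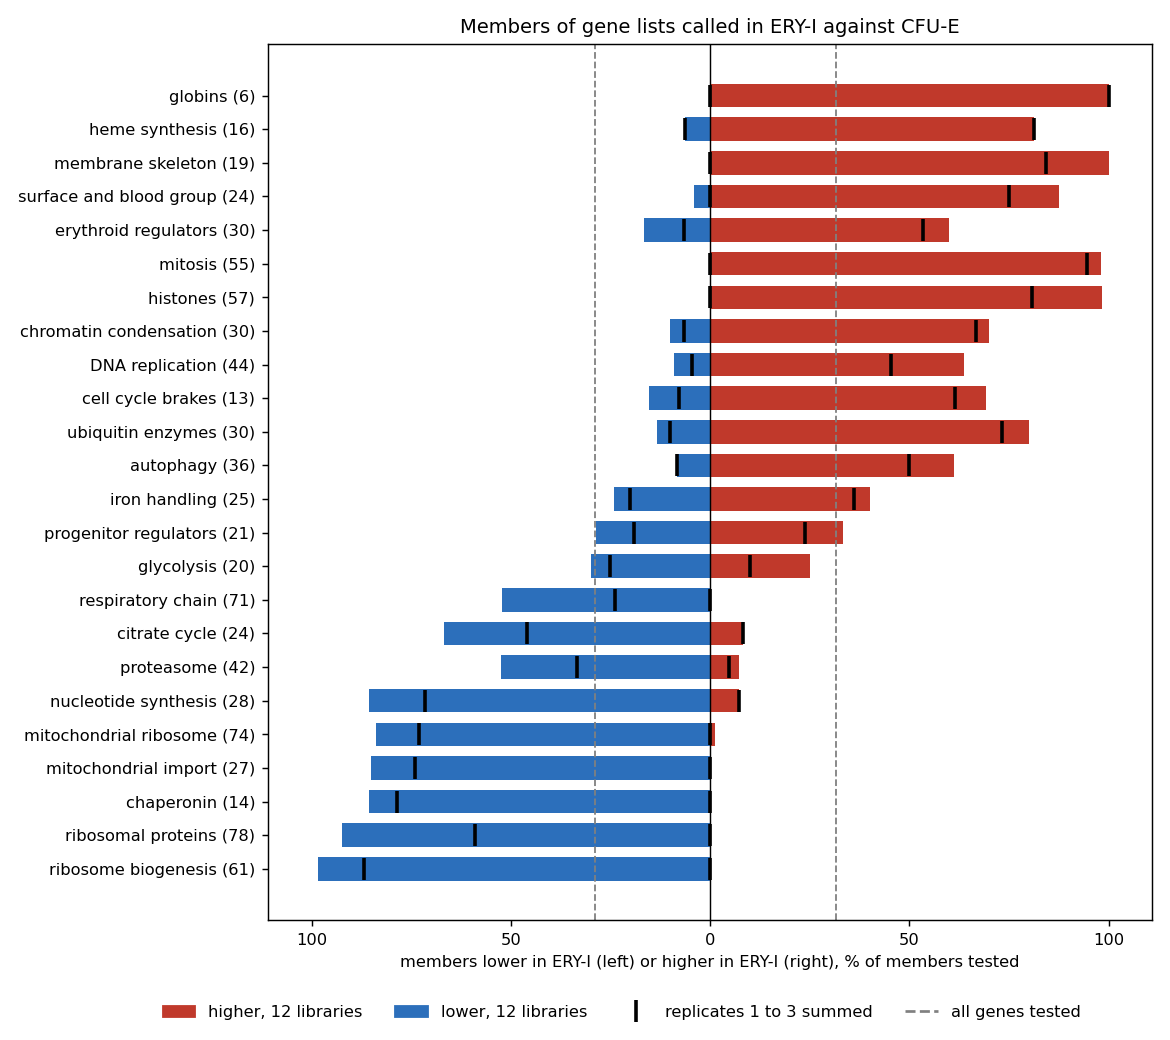
Share of the tested members of each gene list that were higher (right, red) or lower (left, blue) in ERY-I, in percent, with black ticks for the counts from summed triplicates and dashed lines for all genes tested (31.7% higher, 28.9% lower). Globin, membrane skeleton, mitosis and histone genes lie at the right edge, and ribosome biogenesis and ribosomal protein genes reach farthest to the left.

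Hemoglobin genes rose. All 6 of the globin genes with enough counts rose, out of 13 on the list, also with summed triplicates and in the low-marker libraries, with a median log2 fold change of 7.19. Globin genes together held 1.01, 0.989, 0.996, 2.29, 4.64, 8.33 and 10% of the counts in ERY-I 1 to 7, against 0.00823, 0.0102, 0.00832, 0.0204 and 0.047% in CFU-E 1 to 5. No ERY-I library came near the CFU-E level, but the ERY-I libraries spanned about an order of magnitude among themselves, with replicates 1 to 3 lowest. Hba-a1, an alpha-globin gene, had 2693, 3463 and 12399 CPM in ERY-I (lowest, median and highest), against 32.8, 37.4, 30.9, 44.5 and 96.4 CPM in CFU-E. Hbb-b1, the major adult beta-globin gene, had 3793, 12807 and 57524 CPM in ERY-I, against 28.0, 36.1, 28.7, 90.1 and 186 CPM in CFU-E. The log2 fold changes were 6.97 ± 0.48 for Hba-a1 and 7.82 ± 0.59 for Hbb-b1. Each has a near-identical copy, Hba-a2 (7.96 ± 0.55) and Hbb-b2 (7.40 ± 0.55), and how reads were divided between the copies is uncertain. Hbb-b1 counts divided by Hba-a1 counts gave 1.34, 1.43 and 1.33 in ERY-I 1 to 3 and 3.70, 4.58, 4.43 and 4.64 in ERY-I 4 to 7, against 0.854, 0.966 and 0.928 in CFU-E 1 to 3 and 2.03 and 1.93 in CFU-E 4 and 5. The ratio overlapped neither between the stages within a set nor between the sets within a stage. With so few libraries in a set, the exact two-sided permutation test on the summed globin share could give no p below 0.1 in replicates 1 to 3 and 0.1333 in the others, and it gave those values (0.193 in both after adjustment over 26 such tests).

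Genes for making heme rose with the globins. Of 16 tested, 13 rose and 1 fell, and summed triplicates gave the same counts. Alas2, the rate-setting first enzyme of red cell heme synthesis, had 785, 1393 and 2409 CPM in ERY-I (lowest, median and highest), against 9.06, 11.9, 10.7, 11.6 and 9.60 CPM in CFU-E. Slc25a37, mitoferrin, which carries iron into mitochondria, had 869, 1271 and 2405 CPM in ERY-I, against 35.6, 41.7, 35.4, 30.6 and 55.8 CPM in CFU-E. CFU-E levels of both genes were nearly flat across the library sets and the stages did not overlap. Their log2 fold changes were 7.55 ± 0.40 for Alas2 (edgeR adjusted p = 2.0e-07) and 5.51 ± 0.37 for Slc25a37. Abcb10, a mitochondrial transporter needed for heme synthesis, rose by 2.23 ± 0.18 and Ppox, an enzyme of the last steps of the pathway, by 1.89 ± 0.16. The member that fell was Mfsd7b, also known as Flvcr1, a heme exporter, with 6.47, 18.6 and 30.3 CPM in ERY-I against 66.6, 66.1, 61.3, 76.8 and 47.8 CPM in CFU-E (-1.51 ± 0.28).

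Iron handling was mixed. Of 25 genes tested 10 rose and 6 fell (9 and 5 with summed triplicates), and the list's median of 0.25 became -0.08 with library totals. Ncoa4, which delivers ferritin for breakdown and so releases stored iron, rose by 2.14 ± 0.23, and Isca1 and Glrx5, of mitochondrial iron-sulfur cluster assembly, by 1.5 ± 0.18 and 0.97 ± 0.16. Tfr2, the second transferrin receptor, which binds the erythropoietin receptor, fell by 0.94 ± 0.09 on the log2 scale. Aco1, the iron-sensing protein IRP1 in its cluster-free form, changed by -0.80 ± 0.09, and Hspa9, the mitochondrial chaperone of cluster assembly, by -1.32 ± 0.18. The transferrin receptor genes thus moved in opposite directions, Tfrc up and Tfr2 down, with no overlap between the stages in CPM for either.

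Every one of the 19 membrane skeleton genes tested rose (16 with summed triplicates and 16 in the low-marker libraries), with a median log2 fold change of 2.03, or 1.69 with library totals. Tmod1, tropomodulin, which caps the short actin filaments of the red cell skeleton, had 57.1, 87.4 and 165 CPM in ERY-I (lowest, median and highest), against 0.327, 0.714, 0.577, 1.16 and 2.80 CPM in CFU-E. Epb4.2, protein 4.2, which ties band 3 to ankyrin, had 446, 469 and 929 CPM in ERY-I, against 25.2, 29.4, 26.4, 60.5 and 108 CPM in CFU-E. Neither overlapped, and both were highest in CFU-E 5 among the CFU-E libraries. Fold changes on the log2 scale were 6.80 ± 0.43 for Tmod1, a value that rests on few CFU-E counts, 3.93 ± 0.29 for Epb4.2 and 4.31 ± 0.30 for Dmtn, the actin-bundling protein dematin. Of 24 genes for blood group proteins and other red cell surface proteins 21 rose and 1 fell (18 and 0 with summed triplicates), among them Art4, the Dombrock carrier (2.37 ± 0.20), Cd59a, an inhibitor of complement lysis (2.23 ± 0.25), and Slc43a1, an amino acid transporter (1.56 ± 0.17).

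Promoters are shown for the called member with the smallest adjusted p in the heme synthesis, membrane skeleton and ribosome biogenesis lists. They were not chosen by motif content, and matches to short motifs of the lineage's regulators are marked. Each sequence is from RefSeq (GRCm38.p6), written 5′ to 3′ on the gene's strand from 250 bases before to 50 bases after the start. Capitals mark matches on either strand to AGATAA or TGATAA, the core of GATA factor motifs, to CCNCNCCC, a KLF factor motif, or to CACGTG, the E-box that MYC binds. Overlapping matches run into one stretch of capitals. Alas2 lies at chrX:150547167-150547466 on the plus strand, Tmod1 at chr4:46038972-46039271 on the plus strand and Ebna1bp2, a ribosome biogenesis gene that fell, at chr4:118620549-118620848 on the plus strand.
Alas2: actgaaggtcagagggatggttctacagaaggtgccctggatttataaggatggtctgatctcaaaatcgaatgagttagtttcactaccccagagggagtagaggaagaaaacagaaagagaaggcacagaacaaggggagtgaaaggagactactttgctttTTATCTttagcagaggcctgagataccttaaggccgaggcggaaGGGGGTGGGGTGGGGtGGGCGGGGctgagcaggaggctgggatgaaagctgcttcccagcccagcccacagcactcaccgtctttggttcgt
Tmod1: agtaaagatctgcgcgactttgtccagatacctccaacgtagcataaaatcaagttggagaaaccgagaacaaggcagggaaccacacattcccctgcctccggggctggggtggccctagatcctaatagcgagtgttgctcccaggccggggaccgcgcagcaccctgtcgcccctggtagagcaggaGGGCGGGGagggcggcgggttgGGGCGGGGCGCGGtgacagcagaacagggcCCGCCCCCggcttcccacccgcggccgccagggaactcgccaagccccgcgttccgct
Ebna1bp2: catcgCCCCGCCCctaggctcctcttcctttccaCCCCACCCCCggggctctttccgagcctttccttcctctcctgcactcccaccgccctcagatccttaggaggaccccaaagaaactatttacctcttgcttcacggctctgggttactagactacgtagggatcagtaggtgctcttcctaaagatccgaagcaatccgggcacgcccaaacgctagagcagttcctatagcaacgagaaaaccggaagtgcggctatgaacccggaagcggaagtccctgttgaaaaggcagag

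The Alas2 window held 1 AGATAA, 86 bases before the start, and 4 CCNCNCCC matches. The Tmod1 window held 4 CCNCNCCC matches and no GATA motif, and the Ebna1bp2 window 3 CCNCNCCC matches and no E-box. Only genes with exactly 1 promoter entry were counted, and genes with more were left out. In the promoters of the 6326 tested genes of this kind, AGATAA or TGATAA occurred in 9.1%, against 9.6% of the 1926 promoters of genes higher in ERY-I and 9.2% of the 1911 of genes lower in ERY-I. CCNCNCCC occurred in 68.8% of the tested, 73.2% of the higher and 64.4% of the lower, and CACGTG in 11.0% of the tested, 9.2% of the higher and 13.3% of the lower. Among 48 ribosome biogenesis genes that fell 13 promoters (27.1%) held CACGTG, 29 (60.4%) held CCNCNCCC and 1 held a GATA motif. Of the 8 genes with 1 entry among the 12 with the widest upward gap 5 (62.5%) held a GATA motif. A GATA motif was held by 2 of 8 heme synthesis and 1 of 7 membrane skeleton promoters of genes that rose. It was held by 1 of 7 promoters of genes with the widest downward gap. These GATA counts rest on few promoters, and the gap sets were ranked on the same data. Over the 22862 promoters of all genes with 1 entry, tested or not, the shares were 19.4% for the GATA motifs, 48.1% for CCNCNCCC and 7.1% for CACGTG. A match is a description of these letters and was not tested against binding.

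Among 30 erythroid regulators 18 rose and 5 fell (16 and 2 with summed triplicates), and 17 rose in the low-marker libraries. Sox6, a factor that silences embryonic globin, had 484, 575 and 1257 CPM in ERY-I (lowest, median and highest), against 25, 26.6, 23.9, 32.9 and 59.4 CPM in CFU-E. E2f2, a cell cycle factor needed for terminal erythroid divisions, had 412, 581 and 1129 CPM in ERY-I, against 39.5, 43.0, 36.7, 68.6 and 106 CPM in CFU-E. Both genes separated the stages completely, with log2 fold changes of 4.66 ± 0.29 for Sox6 and 3.89 ± 0.31 for E2f2. Foxo3, a factor for oxidative defence and erythroid maturation, had 219, 264 and 398 CPM in ERY-I, against 94.3, 99.3, 101, 54.7 and 91.4 CPM in CFU-E (2.07 ± 0.28). Hemgn, hemogen, rose by 2.27 ± 0.19 and Bach1, a heme-sensing repressor, by 1.11. Klf9, another Krüppel-like factor, fell to 7.52, 12.9 and 19.1 CPM in ERY-I, against 47.7, 40.3, 44.8, 46.8 and 42.8 CPM in CFU-E (-1.45 ± 0.16).

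Factors and receptors of stem and progenitor cells did not move as a group: of 21 tested 7 rose and 6 fell (5 and 4 with summed triplicates), with a median of 0.13 that became -0.17 with library totals. Myc, the growth-promoting factor, had 18, 84.8 and 104 CPM in ERY-I (lowest, median and highest), against 316, 326, 315, 214 and 173 CPM in CFU-E (-1.58 ± 0.24). Myb had 22.1, 192 and 488 CPM in ERY-I, against 1176, 1176, 1169.9, 680.3 and 567 CPM in CFU-E (-1.69 ± 0.39). Myc and Myb did not overlap between the stages, although Myb spread over more than an order of magnitude within ERY-I. Gata2 did overlap, with 0.301, 7.26 and 24.3 CPM in ERY-I and 50.5, 49.4, 46.9, 15.4 and 10.8 CPM in CFU-E (-1.23 ± 0.40), and its call was lost with summed triplicates (edgeR adjusted p = 0.102), in the remaining replicates alone and without the set term. Bmi1, a Polycomb protein of self-renewing cells, changed by -1.22 ± 0.22 and Lyl1 by 1.44 ± 0.20.

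Spi1, which encodes PU.1, a factor of myeloid and B cells, was among the genes called higher, at 0.818, 10.3 and 94.0 CPM in ERY-I and 0.764, 0.143, 0.769, 0 and 0 CPM in CFU-E. Its levels ran with the neutrophil and macrophage marker sums, highest in ERY-I 1 to 3 and lowest in ERY-I 6 and 7, and it had too few counts to be tested in the low-marker libraries. There 1 progenitor gene rose and 7 fell of 15 tested.

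Of 18 tested genes of erythropoietin signalling, a list that mixes the receptor, its signal transducers and response genes, 11 rose and 4 fell (8 and 3 with summed triplicates). Bcl2l1, whose product BCL-XL keeps erythroblasts alive, had 56.3, 179 and 203 CPM in ERY-I (lowest, median and highest), against 11.9, 10.7, 12.2, 37.0 and 48.2 CPM in CFU-E. Pim1, a survival kinase induced by STAT5, had 34.7, 90.2 and 116 CPM in ERY-I, against 10.3, 9.71, 10.9, 8.86 and 13 CPM in CFU-E. Both were higher in all 7 ERY-I libraries, by 3.24 ± 0.45 for Bcl2l1 and 3.37 ± 0.34 for Pim1. Cish, a feedback inhibitor of the pathway, had 2.81, 5.81 and 25.4 CPM in ERY-I and at most 0.437 CPM in CFU-E, where 2 libraries had none. Stat5a, which transmits the signal, fell to 14.1, 51.9 and 60.4 CPM in ERY-I, against 185, 181, 183, 105 and 117 CPM in CFU-E (-1.45 ± 0.22). The others that fell were Stat5b, its close relative (-0.54 ± 0.13), Spred2, an inhibitor of RAS signalling (-0.89 ± 0.17), and Pim3, a kinase of the same family as Pim1 (-0.86 ± 0.30). The Pim3 call was lost with summed triplicates, in replicates 1 to 3 alone, in the low-marker libraries, without CFU-E 4, with the replicate block, without the set term and with limma-voom, that of Spred2 in the low-marker libraries and the remaining replicates alone, and that of Stat5b in the remaining replicates alone. Of 15 other growth factor and cytokine receptor genes 5 rose and 1 fell, and with summed triplicates 1 rose and 1 fell. In the low-marker libraries 1 rose and 2 fell, and the list's median of 0.41 was -0.80 there. The change was larger in replicates 1 to 3 for 8 by the test of that difference, a call that no gene but Fos kept with summed triplicates (edgeR interaction test). Insr, the insulin receptor, rose by 0.99 ± 0.15, and Ifngr1, of the interferon-gamma receptor, had 4.21, 37.8 and 117 CPM in ERY-I, against 280.1, 281, 289, 198 and 141 CPM in CFU-E (-1.88 ± 0.37).

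Of 15 adhesion genes 7 rose and 2 fell (4 and 2 with summed triplicates, 4 and 3 in the low-marker libraries), and their median of 1.14 was -0.15 in the low-marker libraries. Cd36, the thrombospondin receptor used as an erythroblast marker, rose by 3.05 ± 0.24 and Cd24a, the heat-stable antigen, by 2.02 ± 0.19. The fibronectin receptors went opposite ways, Itga4, the alpha chain of VLA-4, with 0.96 ± 0.21 and Itga5, that of VLA-5, with -1.82 ± 0.31. Itga4 had 975, 1068 and 1293 CPM in ERY-I (lowest, median and highest), against 876, 854, 864, 551 and 508 CPM in CFU-E. For Itga5 the values were 3.31, 32.7 and 43.4 CPM in ERY-I, against 134, 134, 133, 98.0 and 92.2 CPM in CFU-E, so that neither integrin gene overlapped between the stages.

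Cell division genes rose, together with genes that restrain the cycle. Of 55 mitosis genes 54 rose and none fell, 52 with summed triplicates and 52 in the low-marker libraries, with a median of 1.28. Cdc25b, the phosphatase that switches on the mitotic kinase, had 319, 418 and 871 CPM in ERY-I (lowest, median and highest), against 6.22, 4.86, 6.06, 7.90 and 8.20 CPM in CFU-E. Nusap1, a spindle protein, had 403, 525 and 731 CPM in ERY-I, against 109, 105, 116, 157 and 139 CPM in CFU-E. The Cdc25b gap was far wider than that of Nusap1, with log2 fold changes of 6.54 ± 0.38 and 2.34 ± 0.17, and neither overlapped. Kif23 and Prc1, of the midzone where daughter cells divide, rose by 2.43 ± 0.19 and 1.86 ± 0.16. DNA replication genes rose less uniformly, 28 of 44 with 4 falling (20 and 2 with summed triplicates), and their median of 0.36 was 0.04 with library totals, which called 14 higher and 8 lower. Rrm2, which makes deoxynucleotides, rose by 1.82 ± 0.16, Orc1 of the origin complex by 1.03 ± 0.14, and Pold2, a polymerase delta subunit, changed by -0.91 ± 0.12.

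Entry into S phase shifted between family members. Of 20 genes of the G1 to S transition 10 rose and 5 fell (9 and 4 with summed triplicates). Ccnd3, cyclin D3, had 379.6, 497 and 589 CPM in ERY-I (lowest, median and highest), against 56.6, 60.7, 65.2, 91.7 and 188 CPM in CFU-E. Ccnd2, cyclin D2, had 5.86, 19.9 and 63.2 CPM in ERY-I, against 118, 125, 118, 37.9 and 35.6 CPM in CFU-E. Ccnd3 separated the stages and Ccnd2 did not. Ccnd3 rose by 2.71 ± 0.21 and Ccnd2 changed by -0.82 ± 0.18, a call that was lost in the remaining replicates alone, in the low-marker libraries and without the set term. Cdk6, a partner of D cyclins, changed by -1.40 ± 0.34, with 7.22, 77.6 and 90.9 CPM in ERY-I and 258, 272, 268, 129.6 and 130.2 CPM in CFU-E, and lost its call in the remaining replicates alone and in the low-marker libraries. Cdk4 changed by -0.83 ± 0.14, E2f7, a repressor of the E2F family, by 2.66 ± 0.23 and E2f1 by 1.11 ± 0.10.

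Of 13 cell cycle brakes 9 rose and 2 fell (8 and 1 with summed triplicates), with a median of 1.94. Cdkn1b, the inhibitor p27, had 53, 97.0 and 124 CPM in ERY-I (lowest, median and highest), against 31.8, 31.3, 31.1, 43.1 and 44.0 CPM in CFU-E (1.76 ± 0.23). Mxd1, a MAX partner that opposes MYC, had 188, 434 and 464 CPM in ERY-I, against 27.6, 33.7, 26.1, 37.7 and 37.4 CPM in CFU-E (3.92 ± 0.28). Neither gene overlapped. The inhibitors Cdkn2d (p19) and Cdkn2c (p18) rose by 4.17 ± 0.33 and 1.95 ± 0.17, and Ccng1, cyclin G1, fell by 0.91 ± 0.16 on the log2 scale.

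Genes of chromatin and the nuclear envelope rose in 21 of 30 cases and fell in 3 (20 and 2 with summed triplicates), with Lbr, the lamin B receptor, at 1.53 ± 0.15 and Ncapd3, a condensin subunit, at 1.26 ± 0.13. Of 20 cytoskeletal genes linked to enucleation 12 rose and 1 fell (10 and 1 with summed triplicates), among them Diap3, a formin of the contractile ring (1.57 ± 0.22), and Rac2 (2.38 ± 0.17), which is also a gene of neutrophils and was highest, at 327 CPM, in ERY-I 3, 1 of the libraries with the highest neutrophil marker sums. Histone genes rose in 56 of 57 cases, 46 with summed triplicates and 24 in the low-marker libraries. Hist1h2bl had 86.0, 105 and 122 CPM in ERY-I (lowest, median and highest), against 40.5, 47.4, 40.0, 70.9 and 66.6 CPM in CFU-E (1.32 ± 0.12). Replication-dependent histone messages lack a poly(A) tail and are seen here because total RNA was used, and reads of these near-identical genes may be divided between copies. The histone change was larger in replicates 1 to 3 than in the others for 36 of the 57 genes by the test of that difference, and none of these calls was kept with summed triplicates, where over all genes Fos alone was called.

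Protein synthesis turned the other way. Of 61 ribosome biogenesis genes 60 fell and none rose (53 with summed triplicates, 43 in the low-marker libraries, 60 with library totals), with a median of -1.29. In 57 of them all 7 ERY-I libraries lay below all 5 CFU-E libraries in CPM, against 23.1% of all genes tested. Ebna1bp2, a nucleolar protein of large-subunit assembly, had 32.8, 59.2 and 67.9 CPM in ERY-I (lowest, median and highest), against 165, 174, 173, 159.8 and 161 CPM in CFU-E (-1.29 ± 0.10). Nhp2, a protein that binds guide RNAs in pseudouridylation complexes, had 42.9, 60.9 and 119 CPM in ERY-I, against 180.5, 183, 176, 339.7 and 316 CPM in CFU-E (-1.56 ± 0.16). The fall in Ebna1bp2 was as large in both library sets (-1.39 ± 0.06 in replicates 1 to 3 and -1.32 ± 0.19 in the others). Taf1d, of the RNA polymerase I machinery, changed by -1.22 ± 0.10 and Imp3, of small-subunit assembly, by -1.01 ± 0.10. Ncl, nucleolin, was less even: it had 1297, 2802 and 3026 CPM in ERY-I, against 9646, 9416, 9418, 3111 and 3342 CPM in CFU-E, and its change of -0.94 ± 0.22 lost its call with summed triplicates (edgeR adjusted p = 0.105), in the remaining replicates and in the low-marker libraries.

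Ribosomal protein genes fell in 72 of 78 cases and rose in none (46 with summed triplicates, 26 in the low-marker libraries, 76 with library totals), with a median of -0.57, a smaller step than that of ribosome biogenesis. Rpl5 had 332, 446 and 496 CPM in ERY-I (lowest, median and highest), against 880.2, 879, 901, 950.5 and 999.8 CPM in CFU-E (-0.75 ± 0.10). Rpl12 changed by -0.78 ± 0.11, a call lost without the set term. In 16 of the 78 genes the stages did not overlap in CPM, all lower. This share was no greater than the 23.1% of all genes tested that lay wholly lower in CPM. Translation factors fell in 38 of 62 cases and rose in 13 (29 and 9 with summed triplicates), and tRNA synthetases fell in 12 of 21 and rose in 2 (7 and 2). Members that rose included Eif2ak1, the heme-regulated kinase HRI that restrains translation when heme is short, with 427, 454 and 835 CPM in ERY-I against 164, 165, 172, 153 and 168 CPM in CFU-E (2.01 ± 0.24), and Aars, alanyl-tRNA synthetase (1.06 ± 0.26). Rars, arginyl-tRNA synthetase, changed by -1.0 ± 0.09 and Eif4ebp1, a repressor of cap-dependent translation, by -1.07 ± 0.10. The tRNA synthetase median of -0.45 was -0.06 in the remaining replicates alone, where 7 fell and 2 rose of 21. In the low-marker libraries that median was 0.07, with 6 falling and 2 rising of 21.

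Genes for nucleotide synthesis fell too. Of 28 tested 24 fell and 2 rose (20 and 2 with summed triplicates), with a median of -0.87. Gart, of purine synthesis, had 71.0, 153 and 188 CPM in ERY-I (lowest, median and highest), against 446, 465, 453, 407 and 430.3 CPM in CFU-E (-1.31 ± 0.13). Umps, of pyrimidine synthesis, changed by -0.99 ± 0.09 and Adsl, again of purine synthesis, by -1.39 ± 0.14. The members that rose were Dck, the salvage kinase for deoxycytidine (1.68 ± 0.11), and Ampd3, the AMP deaminase of red cells (1.31 ± 0.12). Serine and one-carbon genes fell in 8 of 13 cases and rose in 2 (8 and 1 with summed triplicates), with Mthfd1 at -1.36 ± 0.15 and Phgdh, which starts serine synthesis, at -1.63 ± 0.22.

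Glutamine and glutamate genes fell in 10 of 16 cases and rose in 3 (7 and 3 with summed triplicates). Glul, glutamine synthetase, was one of the 3 that rose: it had 124, 152 and 168 CPM in ERY-I (lowest, median and highest), against 102, 90.7, 99.8, 101 and 107 CPM in CFU-E, without overlap (0.86 ± 0.11, edgeR adjusted p = 3.9e-05). Gls2, a glutaminase that runs the reverse reaction, had 2.41, 3.21 and 7.25 CPM in ERY-I, against 11.7, 14.9, 12.8, 13.5 and 15.6 CPM in CFU-E (-1.48 ± 0.24). Glul and Gls2 thus moved apart. Aldh18a1 and Oat, which link glutamate to proline and ornithine, changed by -1.25 ± 0.13 and -1.46 ± 0.17, and Gclc, of glutathione synthesis, by 1.12 ± 0.13. Amino acid transporter genes rose in 10 of 14 cases and fell in 1 (9 and 0 with summed triplicates). Slc6a9, the glycine transporter that supplies heme synthesis, had 116, 135 and 274 CPM in ERY-I, against 1.75, 1.86, 1.92, 3.27 and 2.60 CPM in CFU-E (6.47 ± 0.34), and Slc1a5, which carries glutamine, rose by 1.71 ± 0.23.

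Polyamine genes were divided, with 4 of 11 rising and 5 falling (3 and 3 with summed triplicates). Smox, spermine oxidase, rose by 3.82 ± 0.25 and Azin1, which protects ornithine decarboxylase from its inhibitor, by 1.58 ± 0.19, while Srm, spermidine synthase, had 7.67, 36.9 and 59.3 CPM in ERY-I (lowest, median and highest) against 157, 156, 155, 156 and 168 CPM in CFU-E (-1.88 ± 0.27). Cholesterol genes rose in 4 and fell in 6 of 28 cases (2 and 4 with summed triplicates, 4 and 2 in the low-marker libraries) and fatty acid genes rose in 4 and fell in 8 of 24 (4 and 6 with summed triplicates, 6 and 5 in the low-marker libraries). Fasn, fatty acid synthase, changed by -1.24 ± 0.18. Of 20 glycolysis genes 5 rose and 6 fell (2 and 5 with summed triplicates). Bpgm, the red cell enzyme that makes 2,3-bisphosphoglycerate, had 86.2, 362 and 416 CPM in ERY-I, against 19.2, 14.9, 16.7, 13.3 and 36.2 CPM in CFU-E (4.44 ± 0.44), and Ldha, lactate dehydrogenase A, changed by -1.32 ± 0.19. Of 8 pentose phosphate genes 1 rose and 2 fell (0 and 1 with summed triplicates).

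Mitochondrial genes fell, most of all those that make and import mitochondrial protein. Genes of the mitochondrial ribosome fell in 62 of 74 cases and rose in 1 (54 and 0 with summed triplicates, 43 and 0 in the low-marker libraries), with a median of -0.83. Mrpl12 had 25.6, 51.0 and 68.8 CPM in ERY-I (lowest, median and highest), against 177, 181, 181, 224 and 208 CPM in CFU-E (-1.63 ± 0.15). Import genes fell in 23 of 27 cases (20 with summed triplicates, 27 with library totals), with Tomm40, the channel of the outer membrane, at -1.46 ± 0.16. TCA cycle genes fell in 16 of 24 cases and rose in 2 (11 and 2 with summed triplicates), with Idh3a at -1.38 ± 0.14 and Suclg1, of the enzyme that makes and uses succinyl-CoA, at -1.33 ± 0.12. Pcx, pyruvate carboxylase, rose by 1.53 ± 0.22. Nuclear genes of the respiratory chain fell in 37 of 71 cases and rose in none (17 with summed triplicates, 10 in the low-marker libraries, 63 with library totals), with a smaller median of -0.32. Over all genes 28.9% were lower, 19.7% with summed triplicates and 16.7% in the low-marker libraries, and 4257 of 10460 with library totals. The respiratory chain was thus near the all-gene share with summed triplicates and below it in the low-marker libraries. Ndufb5, of complex I, changed by -0.99 ± 0.11 and Cycs, cytochrome c, by -1.05 ± 0.12.

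Protein folding genes fell as well. The chaperonin and its partners fell in 12 of 14 cases (11 with summed triplicates), and Cct3 had 113, 163 and 251 CPM in ERY-I (lowest, median and highest), against 475, 472, 470.5, 691 and 588 CPM in CFU-E (-1.37 ± 0.12). Heat shock genes fell in 11 of 18 cases and rose in 3 (7 and 2 with summed triplicates), Dnajb2 being among those that rose (3.03 ± 0.31). In the low-marker libraries 3 of 18 heat shock genes fell and 2 rose, with a median of -0.43. The share that fell was near the 16.7% of all genes lower there. Proteasome genes fell in 22 of 42 cases and rose in 3 (14 and 2 with summed triplicates), with Psmd7 at -0.79 ± 0.09, while Psme4, the activator PA200, rose by 0.88 ± 0.20. Ubiquitin enzymes of late erythroid cells rose: 24 of 30 were higher and 4 lower (22 and 3 with summed triplicates, 21 and 2 in the low-marker libraries), with a median of 1.26. Ube2o, which tags excess ribosomal and globin proteins, had 191, 582 and 615 CPM in ERY-I, against 65.6, 63.1, 66.9, 30.6 and 59.4 CPM in CFU-E (3.61 ± 0.35). Ube2h rose by 3.35 ± 0.32, Ube2l6 by 2.93 ± 0.28 and Trim10 by 3.59 ± 0.34. Klhl22, an adaptor of a ubiquitin ligase, fell to 4.51, 10.9 and 16.1 CPM in ERY-I, against 50.9, 44.0, 47.4, 45.3 and 44.8 CPM in CFU-E (-1.77 ± 0.19).

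Autophagy genes rose in 22 of 36 cases and fell in 3 (18 and 3 with summed triplicates, 14 and 4 in the low-marker libraries), with a median of 0.72. Atg9a, which supplies membrane to the growing autophagosome, had 49.2, 69.1 and 88.4 CPM in ERY-I (lowest, median and highest), against 20.7, 21.9, 21.7, 22.0 and 21.8 CPM in CFU-E (2.04 ± 0.19). Wipi1 rose by 1.68 ± 0.19, and Gabarapl1, of the ATG8 family, changed by -1.12 ± 0.12. Of 25 lysosome genes 9 rose and 2 fell (6 and 4 with summed triplicates), while in the low-marker libraries 5 rose and 7 fell. The lysosome change was larger in replicates 1 to 3, the libraries with the highest macrophage marker sums, for 15 genes, and none of these calls was kept with summed triplicates. Ctsb, cathepsin B, rose by 2.06 ± 0.18 and Gaa, acid alpha-glucosidase, fell by 1.43 ± 0.21 on the log2 scale.

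Cell death genes were mixed, with 10 of 21 rising and 6 falling (6 and 5 with summed triplicates, 4 and 4 in the low-marker libraries). Xiap, an inhibitor of cell death proteases, rose by 1.08 ± 0.14. Antioxidant genes rose in 9 and fell in 7 of 29 cases (8 and 5 with summed triplicates), with Mgst3 at 2.96 ± 0.25, Gpx1, glutathione peroxidase, at 1.46 ± 0.20 and Prdx6 at -1.51 ± 0.14. Of 30 p53 and DNA repair genes 16 rose and 10 fell (14 and 5), with Trp53 itself at -0.91 ± 0.09 and Mdm2, the ligase that degrades p53, at 0.74 ± 0.10.

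Genes of the integrated stress response, which slows translation when heme or amino acids run short, rose in 15 of 18 cases and fell in 2 (9 and 0 with summed triplicates, 11 and 0 in the low-marker libraries), with a median of 1.08. Ppp1r15a, the phosphatase subunit that ends the response, had 278, 356 and 713 CPM in ERY-I (lowest, median and highest), against 41.1, 37.6, 38.2, 86.5 and 123 CPM in CFU-E (3.10 ± 0.28), and its constitutive partner Ppp1r15b rose by 0.94 ± 0.13. Interferon response genes rose in 13 of 26 cases and fell in none (11 with summed triplicates), but in 6 and with 2 falling in the low-marker libraries, and their median of 0.78 was -0.28 there. Their change was larger in replicates 1 to 3 for 13, calls that were lost with summed triplicates. Rsad2, viperin, had 138, 418 and 434 CPM in ERY-I, against 9.38, 7.86, 10, 11.4 and 14.8 CPM in CFU-E (5.44 ± 0.36). Its neighbour Cmpk2, a mitochondrial nucleotide kinase, had 94.2, 114 and 125 CPM in ERY-I, against 57.0, 54.0, 55.9, 67.6 and 61.4 CPM in CFU-E (1.26 ± 0.08).

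Immediate early genes, which respond within minutes to outside signals, rose in 8 of 19 cases and fell in none, but in 1 case with 1 falling under summed triplicates. The direction turned in the remaining replicates alone, where 2 rose and 5 fell of 17, and in the low-marker libraries, where 2 rose and 4 fell of 15. The list's median of 1.14 was -0.68 and -0.76 there. Their change was larger in replicates 1 to 3 for 17 of the 19, and with summed triplicates Fos alone kept that call. Btg2 and Dusp1 did not overlap between the stages. Dusp1, a phosphatase that switches off MAP kinases, had 33.8, 48.2 and 77.3 CPM in ERY-I (lowest, median and highest), against 1.53, 1.0, 1.63, 23.7 and 28.2 CPM in CFU-E (2.98 ± 0.74), and lost its call with summed triplicates (edgeR adjusted p = 0.065). Btg2, which curbs proliferation, had 189.7, 289 and 303 CPM in ERY-I, against 3.49, 1.43, 2.5, 16.8 and 36.6 CPM in CFU-E (5.19 ± 0.62).

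Nuclear transport genes fell in 23 of 48 cases and rose in 9 (8 and 7 with summed triplicates), while in the low-marker libraries 6 fell and 12 rose. Xpo7, the exportin that removes histones from maturing erythroblasts, had 106, 569 and 609 CPM in ERY-I (lowest, median and highest), against 26.5, 22.3, 23.3, 9.24 and 20 CPM in CFU-E (5.05 ± 0.47). Ranbp1, a partner of the GTPase that drives nuclear transport, changed by -0.92 ± 0.10. RNA-binding and splicing genes fell in 14 of 37 cases and rose in 8 (5 and 6 with summed triplicates, 2 and 6 in the low-marker libraries). Cpeb4, a translation repressor of terminal erythropoiesis, had 436, 543 and 869 CPM in ERY-I, against 27.7, 36.3, 29.5, 42.7 and 38.6 CPM in CFU-E (4.40 ± 0.25), and Rbm38, which directs erythroid splicing, rose by 2.03 ± 0.22. Xpo7, Cpeb4 and Rbm38 did not overlap between the stages.

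Of 1262 noncoding RNA genes in the list 94 were tested, and 8 rose and 45 fell (3 and 29 with summed triplicates, 4 and 26 in the low-marker libraries). Among those that fell were hosts of small nucleolar RNAs, with Snhg5 at 19.1, 40.5 and 53.8 CPM in ERY-I (lowest, median and highest), against 115, 134, 128, 121 and 87.0 CPM in CFU-E (-1.36 ± 0.16), and Snhg4 at -1.88 ± 0.28. Malat1, an abundant nuclear RNA, had 4224, 9213 and 10187 CPM in ERY-I, against 2508, 2474, 2409, 2297 and 2322 CPM in CFU-E (2.16 ± 0.24). The hairpin gene Mir144, of a microRNA cluster that GATA1 activates in erythroid cells, had 0.937, 2.61 and 4.17 CPM in ERY-I and 0.109, 0.429, 0.385, 0 and 0 CPM in CFU-E. Its level was low and the libraries measured its hairpin gene and not the mature arms. The arms are shown for reference, on the plus strand of chromosome 11 (RefSeq, GRCm38.p6, miR-144-5p at 78073010 to 78073032 and miR-144-3p at 78073047 to 78073066), with capitals for the seed, bases 2 to 8.
mmu-miR-144-5p: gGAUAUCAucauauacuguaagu
mmu-miR-144-3p: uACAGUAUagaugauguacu

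Ranked by the gap between the nearest libraries of the stages, the 12 widest upward gaps belonged to Hba-a2, Alas2, Slc4a1, Cdc25b, Apol11b, Slc6a9, Hba-a1, F830002L21Rik, Slfn14, Hbb-b1, Gm867 and Tmod1, the order being that of the gap. This ranking used the same values as the call and is a description. Apol11b, of the apolipoprotein L family, had 50.3, 107 and 319 CPM in ERY-I (lowest, median and highest), against 0.764, 1.0, 0.0962, 0 and 0.400 CPM in CFU-E. Slfn14, an RNA-cutting protein of the schlafen family, had 54.5, 157 and 217 CPM in ERY-I, against 0.327, 1.86, 0.192, 0 and 0.600 CPM in CFU-E. Gm867 had 32.5, 40.7 and 86.2 CPM in ERY-I, against 0.218, 0.286, 0, 1.16 and 0.800 CPM in CFU-E. These genes were near the floor of detection in CFU-E and clearly present in all 7 ERY-I libraries, so their fold changes rest on a few CFU-E counts and are not given. Apol11b lies on chromosome 15 at 77633946 to 77643286, Slfn14 on chromosome 11 at 83275110 to 83286726 and Gm867 on chromosome 10 at 75937723 to 75940672, all on the minus strand (GRCm38).

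The 12 widest downward gaps were those of Prelid2, Spry4, Spire2, Plvap, Smo, Amigo2, Ccdc68, Npm3, Mmp14, Fzd7, Spon2 and Fpgs. Spry4, an inhibitor of signalling from receptors such as KIT, had 0, 0.641 and 1.4 CPM in ERY-I (lowest, median and highest), against 16.8, 17.6, 14.8, 13.3 and 9.60 CPM in CFU-E (-4.05 ± 0.40). Smo, the signal transducer of the Hedgehog pathway, had 3.91, 10.5 and 15.6 CPM in ERY-I, against 61.2, 61.1, 57.3, 81.5 and 82.4 CPM in CFU-E (-2.54 ± 0.23). Prelid2 had 0, 2.92 and 4.40 CPM in ERY-I, against 31.2, 30.3, 29.1, 31.4 and 28.6 CPM in CFU-E (-3.25 ± 0.47). Prelid2 was nearly constant across CFU-E and absent from at least 1 ERY-I library. Npm3, a nucleolar relative of nucleophosmin, changed by -2.16 ± 0.22. The downward gaps were narrower than the upward ones, and Prelid2 and Spry4 are both on chromosome 18.

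The step was compared between the library sets with an interaction test. Its form with summed triplicates has 1 library per stage for replicates 1 to 3 and thus little power, so calls lost there do not show that the sets agree. The change in replicates 1 to 3 was more positive than in the others for 1383 genes (13.2%) and more negative for 1143 (10.9%), or 1417 and 601 with library totals. Without ERY-I 4 the more negative ones were 1930, and without CFU-E 1 or 3 the more positive ones were 906 and 910. With summed triplicates the test called 1 gene of 10186 (0.00982%), Fos, with 1126 at an unadjusted p below 0.05. Fos, an immediate early factor, had 27.5, 24.9 and 27.5 CPM in ERY-I 1 to 3 and 1.32, 0.937, 0.752 and 0.613 CPM in ERY-I 4 to 7, against 0.873, 1.43 and 0.673 CPM in CFU-E 1 to 3 and 44.7 and 26.0 CPM in CFU-E 4 and 5. Its change was 4.91 ± 0.23 in replicates 1 to 3 and -4.84 ± 0.37 in the others, which leaves a change of -0.59 ± 1.86 over both. Nfkbia, the NF-kappa-B inhibitor, behaved likewise, with 2.89 ± 0.12 in replicates 1 to 3 and -2.99 ± 0.41 in the others. Aldh1a7, an aldehyde dehydrogenase, had the reverse pattern, with -1.10 ± 0.08 in replicates 1 to 3 and 2.97 ± 0.35 in the others. Within replicates 1 to 3 alone 4718 genes rose (41.1%) and 4373 fell (38.1%), and within the others 2316 rose (22.9%) and 1955 fell (19.4%). No difference between the sets was called for the landmark genes at an edgeR adjusted p below 0.05, with 2 exceptions among the 24 reported here. These were Bcl2l1, whose change was 4.06 ± 0.08 in replicates 1 to 3 and 2.27 ± 0.59 in the others (edgeR adjusted p of the difference = 0.044), and Ncl (edgeR adjusted p of the difference = 0.0066).

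**Figure D4:**
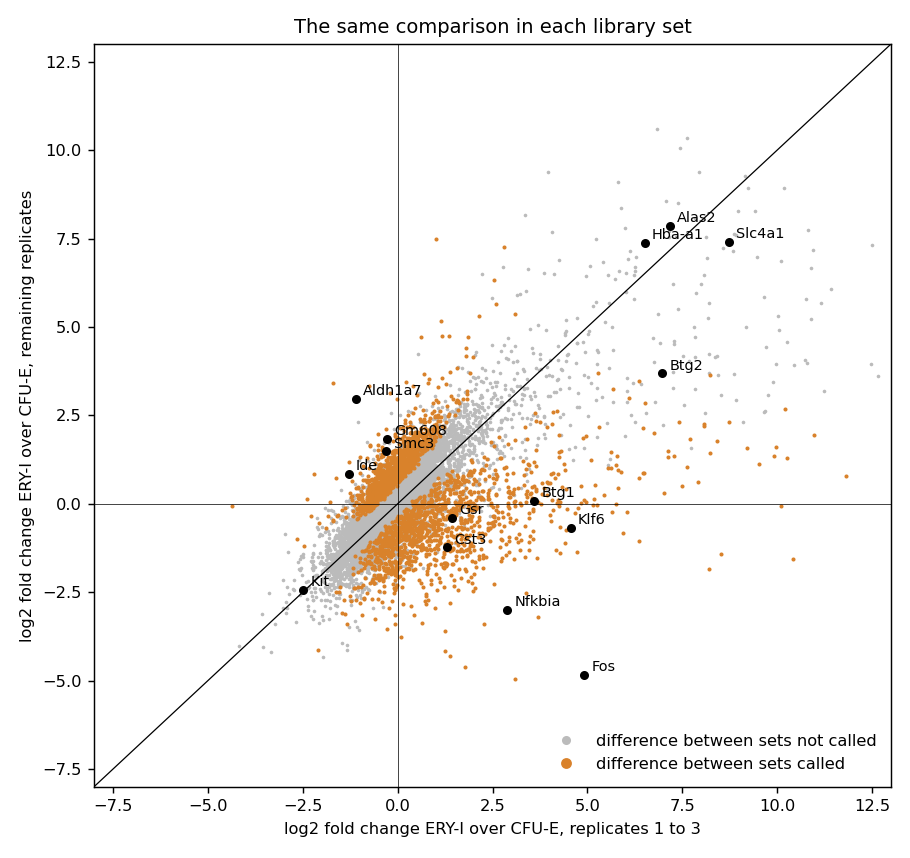
Log2 fold change of ERY-I over CFU-E in replicates 1 to 3 (horizontal axis) and in the remaining replicates (vertical axis) for each of 9891 genes, with the 2422 genes whose change differed between the sets at an adjusted p below 0.05 in orange. Most genes lie near the diagonal, and Fos and Nfkbia lie in the quadrant that is positive in replicates 1 to 3 and negative in the others.

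A nearby step was measured in WT ERY-I-II against WT CFU-E of the knockout series (n = 3 each). There 4068 of 10197 genes were higher (39.9%) and 4273 lower (41.9%), 81.8% in all. Here n counts libraries, and no label says that they came from separate mice. How close the WT replicates lie to counting noise was not examined, and they were not summed. Their SDs, SEs and calls, and those of the difference between the series, thus reflect library-to-library spread only. The median there was -0.03 with TMM and -0.47 with library totals. Scaled by totals, 2462 genes were higher and 6211 lower. Of 9974 genes tested in both series, 2552 were higher in both, which is 63.8% of those higher in WT and 83.9% of those higher in the stage series. For lower genes it was 2379, or 57.0% of those of WT and 79.2% of those of the stage series. Opposite calls were fewer: 250 genes higher in the stage series were lower in WT, and 198 genes lower in the stage series were higher in WT. Kit had 11.8 ± 1.01 CPM in WT ERY-I-II and 483 ± 6.11 CPM in WT CFU-E (SD, n = 3 each), and Slc4a1 had 6710 ± 27.9 CPM in WT ERY-I-II and 4.63 ± 0.759 CPM in WT CFU-E. The log2 fold changes of both were larger than in the stage series, at -4.94 ± 0.05 for Kit and 10.91 ± 0.04 for Slc4a1. Gata1, not called in the stage series, was higher in WT by 0.94 ± 0.03.

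The difference between the series was tested in 1 fit over the 18 libraries, an analysis added after the data were seen. The WT change was more positive for 1584 of 11849 genes (13.4%) and more negative for 1303 (11.0%), while RLE size factors gave 1077 and 1469, library totals 784 and 1345, and no low-count filter 851 and 1380. The more positive ones were 1023, 1047 and 1020 without CFU-E 1, 2 or 3, and 1048 and 1036 without ERY-I 2 or 3. WT ERY-I-II also holds basophilic erythroblasts, so series and gate cannot be told apart. Most ribosomal protein genes differed: 67 of 79 were more positive in WT and none more negative (58 with library totals). In WT 42 of 76 of them were called higher and 14 lower with TMM, but 1 higher and 72 lower with library totals, so the WT direction itself depends on the scaling. Rpl5 had 579 ± 6.81 CPM in WT ERY-I-II and 859 ± 27.6 CPM in WT CFU-E (SD, n = 3 each), a log2 fold change of -0.14 ± 0.02 in WT against -0.75 ± 0.10 in the stage series. Respiratory chain genes showed the same split, with 35 of 72 more positive in WT (17 with library totals), 37 of 71 higher and 12 lower in WT with TMM, and 6 higher and 42 lower in WT with library totals. Genes of the mitochondrial ribosome were more positive in WT in 37 cases (10 with library totals), and ribosome biogenesis genes in 4 of 61, with 59 of 61 lower in WT and 60 of 61 in the stage series.

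Histone genes were higher in WT ERY-I-II in 58 of 58 cases, and 56 histone genes rose more in WT than in the stage series (53 with library totals). Hist1h2bl had 193 ± 8.35 CPM in WT ERY-I-II and 49.7 ± 1.51 CPM in WT CFU-E (2.39 ± 0.05). DNA replication genes were more positive in WT in 35 of 44 cases (32 with library totals), and 42 of 44 rose there. Progenitor genes were more negative in WT in 16 of 27 cases, and in WT 15 of 17 fell and 2 rose. Gata2 had 1.25 ± 0.344 CPM in WT ERY-I-II and 38.9 ± 1.08 CPM in WT CFU-E (-4.55 ± 0.18). Ccnd2 had 2.13 ± 0.667 CPM in WT ERY-I-II and 101 ± 2.31 CPM in WT CFU-E (-5.18 ± 0.13), where the stage series gave -0.82 ± 0.18. Spi1 had 0.401 ± 0.457 CPM in WT ERY-I-II and 0.468 ± 0.102 CPM in WT CFU-E, too few counts to be tested, in contrast to its call in the stage series. Markers of other cells also rose in WT ERY-I-II, neutrophil markers in 9 of 9 cases (median 2.69) and macrophage markers in 5 of 6, with 1 falling (median 2.17). Over all genes tested there 39.9% rose, and only list members with enough counts were tested. Neutrophil markers were more negative in WT than in the stage series in 10 of 17 cases and macrophage markers in 4 of 20, and the part of these cells in the difference between the series was not tested.

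**Figure D5:**
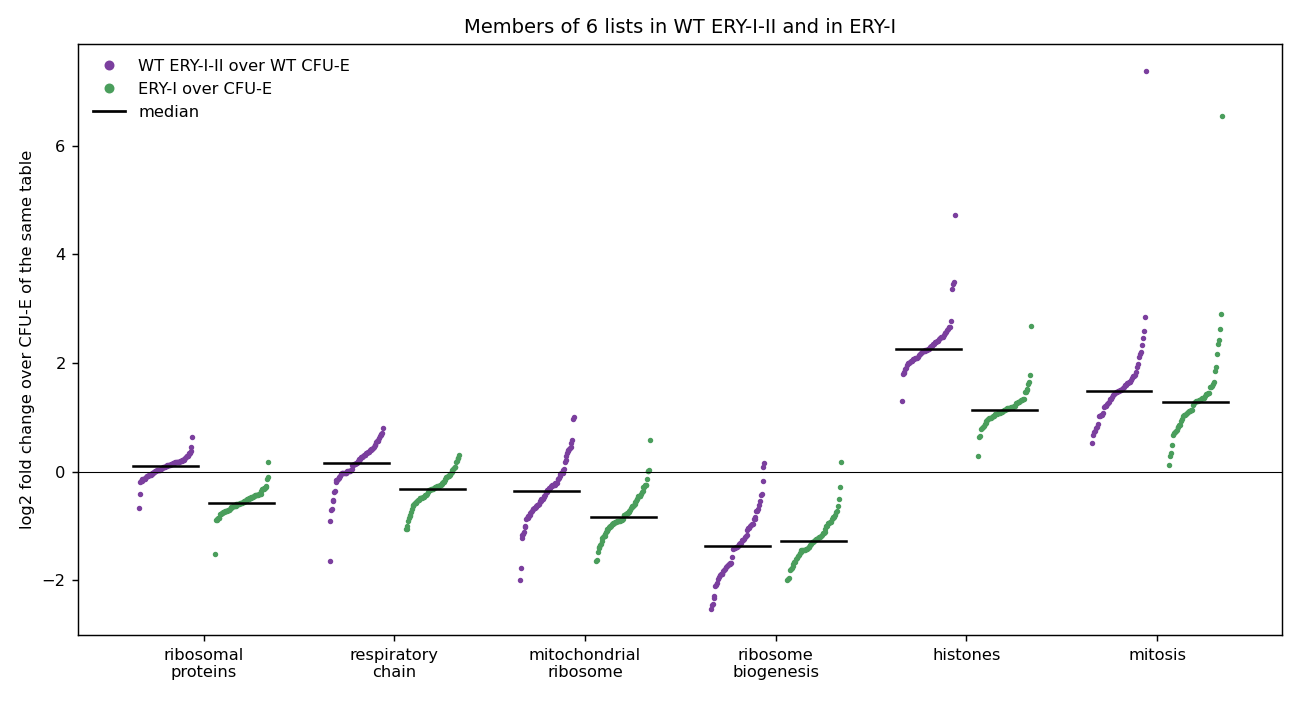
Log2 fold change of the members of 6 gene lists in WT ERY-I-II over WT CFU-E (purple, left) and in ERY-I over CFU-E of the stage series (green, right), for members tested in both, on the TMM scale. Ribosomal protein and respiratory chain genes lie around 0 in WT (median 0.10 and 0.16, but -0.33 and -0.28 with library totals) and below it in the stage series, and histone genes lie higher in WT.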

How the data were processed

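RNA of flow-sorted bone marrow erythroid cells was sequenced with the SMARTer Pico Input kit for stranded total RNA (Takara), per the labels' protocols. Reads were aligned to mm10 with STAR 2.5.2b and counted with HTSeq, per the submitters' processing notes. The strand setting, the annotation and the HTSeq version are unstated in these notes. The deposited values are the authors' raw counts per gene, not normalized, in a table of the stage series and a table of the knockout series. How reads were shared between near-identical genes and between overlapping or antisense genes depends on that counting.

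Genes were kept by edgeR's filterByExpr (minimum count 10, minimum total 15), scaled by TMM and tested by edgeR 4.0.16 quasi-likelihood with stage and library set as terms, with Benjamini-Hochberg adjustment over all genes tested. Totals of counts bound the precision: a level under a few CPM rests on few reads. CPM values are counts over library totals, so they are not on the TMM scale of the fold changes. WT libraries were fitted alone and, for the difference between series, with the stage series. DESeq2 1.42.0, limma-voom (limma 3.58.1) and other scalings, filters and subsets were alternatives, run in R 4.3.3. The fits were also run on simulated counts, which held no difference between library sets and no near-repeat replicates. That run does not show how the fits behave on libraries with these features. The replicate number was tried as a block: deviations of same-numbered libraries from the stage means correlated at 0.33 to 0.43, but from the means of stage and library set at -0.00 to 0.10, so the numbers carried the library set.

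The 58 gene lists, the members and the marker lists were chosen with earlier results of these data known. The text names 24 landmark genes, the 12 called genes each way with the widest gap between libraries (log2 of the lowest over the highest CPM, plus 0.5, mean of at least 5 CPM), the 6 genes each way with the smallest p for the set difference and up to 4 called members of a list each way. A few genes that these rules name are not reported here. Apol11b, Slfn14, Gm867, Cish, Spi1 and Mir144, which were near 0 in CFU-E, are given as levels only. Promoters and miRNA sequences came from RefSeq (GRCm38.p6), with 22548 of 24059 genes matched by symbol. Gene positions came from GRCm38.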

Additional observations from a re-analysis of the deposited data

Results flagged for a closer look

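Among 108 groups of values examined, 9 held a library that lay far from the others of its stage by Dixon's test. The test's nominal rate of 1 in 20 assumes independent values from 1 population. Each stage held 2 library sets, with replicates 1 to 3 far closer to each other than the rest, so that rate does not apply here. In 6 of the 9 groups the library was CFU-E 5 and the high value was that of an erythroid or other marker. CFU-E 5 had 108 CPM of Slc4a1 (the next CFU-E library 30.4 CPM), 96.4 CPM of Hba-a1 (next 44.5), 19.4 CPM of Hba-a2 (next 11.3) and 59.4 CPM of Sox6 (next 32.9). Its summed B lineage markers were 13.4 CPM (next 5.2) and its summed megakaryocyte markers 97.4 CPM (next 70.9). CFU-E 4 had the lowest Foxo3, 54.7 CPM (next 91.4). ERY-I 6 had the highest Gm867, 86.2 CPM (next 54.6), and the highest Tmod1, 165 CPM (next 103). The Slc4a1, Hba-a1, Hba-a2, Sox6, Foxo3, Gm867 and Tmod1 calls were kept without the library concerned.

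The change between the stages differed between the library sets for 2526 genes, by a test of the difference. The difference of log2 changes (replicates 1 to 3 minus the others) was 9.86 for Fos, 6.01 for Nfkbia, 5.36 for Klf6, 3.63 for Btg1, 2.66 for Cst3 and 1.96 for Gsr, and -3.94 for Aldh1a7, -2.01 for Ide, -2.0 for Gm608 and -1.65 for Smc3. Of these 10 genes only Fos was also called with summed triplicates. Gsr, glutathione reductase, had 52.1, 63.1 and 326 CPM in ERY-I (lowest, median and highest), against 127, 126, 128, 101 and 103 CPM in CFU-E. The change differed between WT and the stage series for 2887 genes, by a test of the difference.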

How the results depend on the processing

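Of 3318 genes higher and 3024 lower, a minimum change of 2-fold left 1014 and 291, summed triplicates 2344 and 2011, the remaining replicates alone 2316 and 1955, and ERY-I 4, 6 and 7 against CFU-E 4 and 5 (added after seeing the data) 2066 and 1653. Of the genes called, 2302 higher (69.38%) and 1986 lower (65.67%) were also called with summed triplicates. Leaving out 1 library gave 2877 to 3491 higher and 2755 to 3283 lower. With the replicate number as a block, 3056 were higher and 2657 lower, 3539 differed between the library sets, 8194 changed in WT and 3751 differed between WT and the stage series, and of the genes named Pim3 lost its call (edgeR adjusted p = 0.103). Of the 2526 genes that differed between the sets, 1 was called with summed triplicates (1126 at an unadjusted p below 0.05), and leaving out 1 library gave 1767 to 3498. Without ERY-I 4 the genes more negative in replicates 1 to 3 were 1930, and without CFU-E 1, 2 or 3 the more positive ones were 906, 930 and 910. Leaving out 1 library gave 8056 to 8397 genes changed in WT and 2019 to 3659 that differed between WT and the stage series, of which 1020 to 1977 were more positive in WT (1020 without CFU-E 3). DESeq2, RLE size factors, limma-voom, other filters and library totals kept each of these counts within 1.5 times, where run, but not each direction: with library totals 601 genes were more negative in replicates 1 to 3 (1143 with TMM) and 784 more positive in WT (1584 with TMM), and without the low-count filter the last were 851. The cause of these differences was not tested. Of 162 called genes followed by name through 26 settings, 52 lost the call under at least 1 setting and none reversed. The test against a 2-fold change alone lost 51. Under other settings, given beside them, Gata2, Klf1, Epor, Cdk6, Ccnd2, Ncl, Rpl12, Pim3, Spred2, Stat5b and Dusp1 lost their calls. Depth limits the genes near 0 in CFU-E.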
